A study of Mus musculus with 11 samples.

Results

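The 10 genes Rbm24, Rbm38, Celf1, Celf2, Mbnl1, Mbnl2, Mbnl3, Ptbp1, Ptbp2 and Qk encode RNA-binding proteins that control alternative splicing in muscle. They were chosen by name, through the gene symbol of each microarray probe with older synonyms accepted, and account for 19 of the 25697 probes on the array and for 10 of its 16593 gene symbols. Their mRNAs were measured in the mouse myoblast line C2C12, whose cells fuse into multinucleated myotubes. Of the samples, 5 were differentiated cells at Day 6, kept in medium with horse serum, and 5 were proliferating cells at Day 0, kept in medium with a higher concentration of fetal bovine serum. Both days are the same cell line, with no modification named in the labels, which limits them as a model to 1 immortalized line in culture. The labels of all arrays carry the word input, whose meaning is not given in the sources used here. The RNA of Day 0 replicate 5 was run on 2 arrays and counted once. The sources used here do not say whether the samples of a day came from separate cultures, so the p-values measure the spread between these samples.

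Alternative splicing joins different sets of exons from 1 gene, and RNA-binding proteins direct it by binding near exons and promoting or blocking their use. Muscle relies on it to make its own forms of contractile, calcium-handling and cytoskeletal proteins during differentiation. The MBNL and CELF families act on many of the same muscle exons, often in opposite directions, and in myotonic dystrophy MBNL proteins are trapped on expanded CUG repeats. PTBP1 represses tissue-specific exons, RBM24 and RBM38 are closely related and act in muscle differentiation, and Quaking (Qk) binds introns near regulated exons.

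To show where transcription of the genes with the largest changes starts, the promoter windows of Rbm24, Rbm38 and Ptbp1 are printed from RefSeq on GRCm38.p6, each from 250 bases before to 50 bases after the start of the gene. All 10 genes matched the RefSeq table, with 15 windows. Capitals mark CAGCTG or CAGGTG, searched on both strands, so that CACCTG also counts. These are forms of the E-box CANNTG, the motif that myogenic factors such as MyoD bind, and every match is also an E-box match.
Rbm24, chr13:46418050-46418349, plus strand: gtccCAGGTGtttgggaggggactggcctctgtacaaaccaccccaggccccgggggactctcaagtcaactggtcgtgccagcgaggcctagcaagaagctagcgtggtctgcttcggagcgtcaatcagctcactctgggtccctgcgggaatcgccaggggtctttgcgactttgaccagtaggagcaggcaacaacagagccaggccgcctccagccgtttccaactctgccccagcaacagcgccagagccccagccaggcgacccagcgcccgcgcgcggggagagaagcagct
Rbm38, chr2:173021652-173021951, plus strand: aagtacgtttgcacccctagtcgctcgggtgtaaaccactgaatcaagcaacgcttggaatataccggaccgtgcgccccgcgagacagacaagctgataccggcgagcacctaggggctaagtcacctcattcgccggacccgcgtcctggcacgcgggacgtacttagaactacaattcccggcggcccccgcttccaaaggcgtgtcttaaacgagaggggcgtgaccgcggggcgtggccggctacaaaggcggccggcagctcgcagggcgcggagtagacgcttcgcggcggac
Ptbp1, chr10:79854182-79854481, plus strand: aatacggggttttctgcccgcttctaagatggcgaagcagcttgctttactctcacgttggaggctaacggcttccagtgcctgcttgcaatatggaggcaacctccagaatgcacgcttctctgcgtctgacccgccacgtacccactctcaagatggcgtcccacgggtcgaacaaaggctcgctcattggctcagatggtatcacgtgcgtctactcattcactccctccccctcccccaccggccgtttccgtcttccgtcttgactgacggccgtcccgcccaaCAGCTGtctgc
The Rbm24 window held 1 match, which began 246 bases before the start (position -246), the Ptbp1 window held 1 at position 40 after it, and the Rbm38 window held none. Over the 15 windows, 2 held such a match, against 32.9% of all 32851 promoter windows in the table. Any E-box was found in 9 of the 15 windows, against 72.3% of all windows. A match is a string of letters in a window and not a measured binding site.

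Signals were background-corrected, quantile normalized and put on the log2 scale, and probes were kept that rose above the negative controls (detection p under 0.05) in 3 or more samples of either day. Of the 19 probes 15 were kept, and they belonged to 7 of the 10 genes. Where a gene had several kept probes, the brightest on average stood for it. Day 6 was compared with Day 0 by limma over all 12753 kept probes, and a probe was called at a Benjamini-Hochberg adjusted p under 0.05. Of the 7 genes, 3 were called higher at Day 6 (Rbm38, Rbm24 and Celf2), 2 were called lower (Ptbp1 and Mbnl1) and 2 were not called (Celf1 and Mbnl2). Over all 8659 genes tested, 21.0% were called higher and 24.2% lower. By probe, 7 of the 15 kept were called higher and 3 lower, against 20.5% and 23.8% of all kept probes. In 6 member probes every Day 6 sample lay above every Day 0 sample, and in 3 every Day 6 sample lay below, against 14.7% and 16.7% of all kept probes. The median change of the 7 genes was 0.18 on the log2 scale, against -0.03 over all genes.

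The labelled cell type was checked against marker genes. Of 6 skeletal muscle markers, 5 were detected at Day 6 and 4 at Day 0. Myf5, a myoblast factor, was undetected on every array. Their summed signal lay between 26122 and 31701 at Day 6 and between 3396 and 12078 at Day 0. The top Day 0 value belonged to replicate 5, and the other 4 Day 0 samples did not exceed 4523. That sample was also the highest of its day in 3696 of the 12753 kept probes and the lowest in 4590. The changes of the called members, by representative probe, are therefore given with and without it, as are the largest increases among the muscle genes. Most other changes are given with it only. Array medians ran between 57.2 and 64.3 at Day 6 and between 56.6 and 62.7 at Day 0. The share of probes detected was 44.7 to 48.7% on the Day 6 arrays and 45.9 to 47.4% on the Day 0 arrays. Kept probes had an SD of 0.31 among Day 6 samples and 0.39 among Day 0 samples, and of 0.21 for the RNA that was run on 2 arrays. Of the markers of other cell types, the neuronal list had 1 of 7 genes detected on both days (Map2), with sums of 297 to 367 at Day 6 and 291 to 355 at Day 0. The osteoblast list had 2 of 5 genes with a probe detected (Bglap and Alpl), with sums of 410 to 498 at Day 6 and 196 to 249 at Day 0. Both kept Bglap probes were called higher, by 1.25 and 2.73, while Alpl changed by -0.12 and was not called. Its defining markers Ibsp, Sp7 and Dmp1 stayed below the detection rule. The macrophage and leukocyte list had 1 of 4 genes detected (Cd14, called lower by -1.04, adjusted p = 0.0014), with sums of 221 to 256 in Day 6 samples and 246 to 328 in Day 0 samples. Ptprc, Adgre1 and Lyz2 did not meet the detection rule. The adipocyte list had 1 of 5 genes with a probe detected on both days (Lep). Its sums were 117 to 134 at Day 6 and 119 to 131 at Day 0. The endothelium list had 2 of 5 genes detected at Day 6 (Kdr and Tek) and 1 at Day 0 (Kdr). Its sums were 136 to 156 at Day 6 and 128 to 149 at Day 0. None of Lep, Kdr and Tek was called. The part of these cells in the member values was not tested. In RNA from whole cultures, more cells of a type and more RNA per cell cannot be told apart.

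The 2 RBM genes were higher at Day 6. Rbm24, whose protein promotes the inclusion of muscle exons in sarcomere genes, had normalized log2 signals of 6.05, 6.60, 6.44, 5.45 and 5.80 in the Day 6 samples, against 4.18, 4.22, 4.20, 4.31 and 4.34 in the Day 0 samples (ILMN_2802711). The days did not overlap, and the probe was above background in all 5 Day 6 samples and on none of the 6 Day 0 arrays. On this normalized scale the mean level at Day 6 was thus at least 2.60-fold higher, a bound set by the dimmest detected probes of the Day 0 arrays. The bound depends on the processing, and over the alternatives the fitted change ran from 0.92 to 1.97. In the main fit it was 1.82 ± 0.20 (SE, n = 5 samples a day) with a limma adjusted p of 7.6e-06.

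Rbm38, which encodes the relative of RBM24 known also for binding the mRNA of the cell cycle inhibitor p21, gave 9.08, 9.27, 9.14, 8.89 and 9.17 at Day 6, against 6.77, 6.98, 6.69, 7.00 and 8.21 at Day 0 (ILMN_1240979). The days did not overlap, but Day 0 replicate 5 stood between the other Day 0 samples and Day 6. Rbm38 was 3.94-fold higher at Day 6, a change of 1.98 ± 0.25 (SE, limma adjusted p = 2.3e-05), and the change was 2.25 without Day 0 replicate 5. Its 2 arrays gave 8.25 and 8.16, so the raised value was found on both. The sample's summed muscle markers were raised as well, at 12078. Its Rbm24 probe stayed undetected. Its Ptbp1 signal was the highest of Day 0 by the representative probe (10.98, next highest 10.89). By the second Ptbp1 probe it was not (6.85, against 6.22 to 7.34 in the other Day 0 samples). The part of the raised muscle markers in its Rbm38 value was not tested. The other 2 Rbm38 probes changed by 1.99 (ILMN_2926155) and 1.76 (ILMN_2708211), and both were called. Since Rbm24 was undetected at Day 0 and its change is a bound, the changes of Rbm38 and Rbm24 are not ranked.

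**Figure D1:**
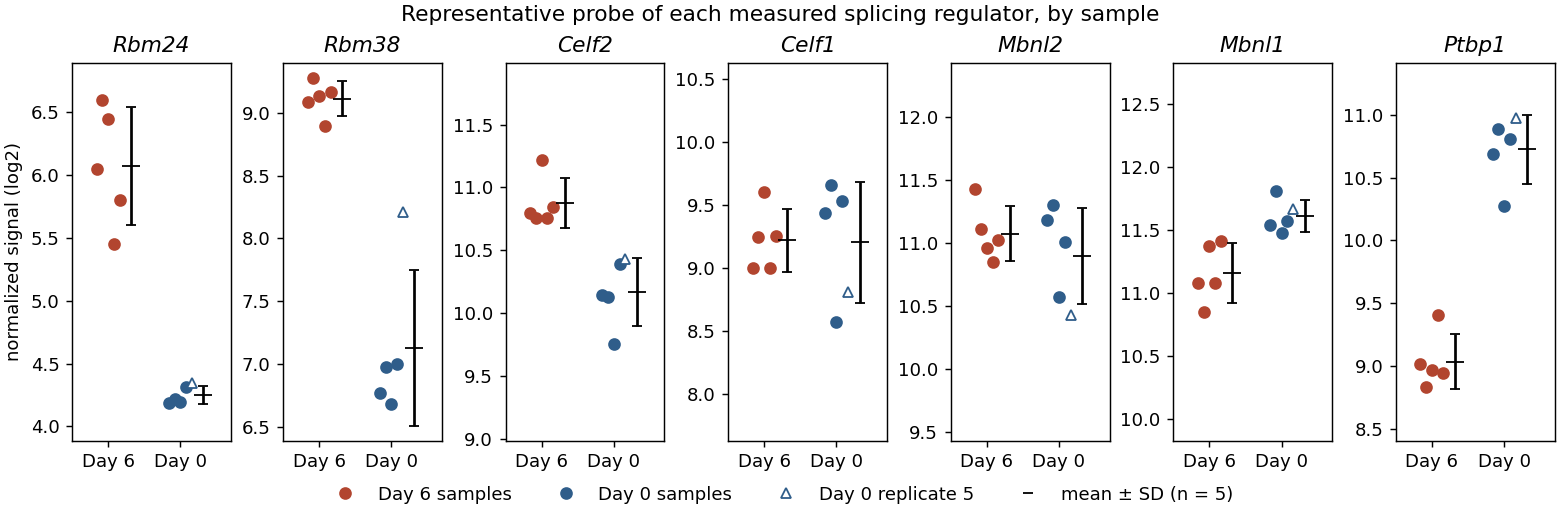
Normalized log2 signal (vertical axis, each panel spanning the same height on its own scale) of the representative probe of 7 splicing regulators in 5 Day 6 and 5 Day 0 samples; points are samples, bars are mean ± SD, and the open triangle is Day 0 replicate 5. Days separate for Rbm24, Rbm38, Celf2, Mbnl1 and Ptbp1 and overlap for Celf1 and Mbnl2, and the triangle stands at 8.21 for Rbm38, above the other Day 0 samples.

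Ptbp1, the polypyrimidine tract binding protein that represses muscle and neuronal exons, had the largest decrease. Its signals were 9.02, 8.84, 8.97, 9.41 and 8.95 at Day 6, against 10.69, 10.89, 10.27, 10.81 and 10.98 at Day 0 (ILMN_3140788). The lowest Day 0 sample was still above the highest Day 6 sample. Ptbp1 fell by 1.69 ± 0.17 on the log2 scale (SE, n = 5 a day), or 3.23-fold, with a limma adjusted p of 2.8e-06. A second probe, annotated to another transcript of the gene, fell by 1.51 (adjusted p = 2.8e-05), and its samples did not overlap either. Its relative Ptbp2, which is best known in neurons and takes the place of PTBP1 there, was not above background on any of the 11 arrays, with signals of 47.7 to 54.2 at Day 6 and 46.2 to 61.8 at Day 0. Ptbp2 was read by a single probe here and was not tested, and no fold is given.

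Of the CELF family, Celf2 rose. Its signals were 10.80, 10.76, 11.22, 10.76 and 10.85 at Day 6, against 10.15, 10.13, 9.76, 10.39 and 10.43 at Day 0 (ILMN_1252673). The days did not overlap, and the change was 0.71 ± 0.16 (SE, limma adjusted p = 0.0030), or 1.63-fold. The call was lost when the arrays were scaled only to equal medians (change 0.55, adjusted p = 0.0934). The second Celf2 probe (ILMN_2594575) was also higher, by 0.64 (adjusted p = 0.0294, exact permutation p = 0.0317, two-sided), with overlapping days. Its call was lost in 11 of 23 alternatives, among them the omission of Day 6 replicate 1, 2 or 3 or of Day 0 replicate 1 or 2.

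Celf1, the family member best known for promoting fetal exons in heart and muscle, gave different answers from different probes. The representative probe (ILMN_2667971) had 9.00, 9.24, 9.60, 9.00 and 9.25 at Day 6, against 9.44, 9.65, 8.57, 9.53 and 8.81 at Day 0. The Day 6 values lay within the range of the Day 0 values, with a change of 0.02 (95% interval -0.45 to 0.49, adjusted p = 0.959) that was -0.16 with equal array medians. A neighbouring probe number, ILMN_2667972, changed by 0.02 as well (adjusted p = 0.961).

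The third Celf1 probe, ILMN_1221266, had 8.47, 8.67, 8.99, 8.62 and 8.50 at Day 6, against 8.12, 8.39, 7.38, 8.32 and 7.65 at Day 0. It was called higher by 0.68 ± 0.20 (SE, adjusted p = 0.0152) without overlap, a call lost with equal array medians (adjusted p = 0.217). Within each sample, its signal minus that of the representative probe lay between -0.75 and -0.37 in Day 6 samples and between -1.31 and -1.16 in Day 0 samples. The difference of the changes was 0.66 ± 0.14 (SE, limma adjusted p over all probe pairs = 0.0045, exact permutation p = 0.00794, the smallest that 252 splits allow). This held in every alternative in which the pair was tested. The 3 probes are annotated to the same transcript, so the annotation gives no difference between them, and the cause was not tested. The remaining Celf1 probe, annotated to another transcript, was detected in 2 samples of each day and was not tested. Of the 8 pairs of a member's representative probe with another kept probe, this was the 1 whose changes differed, against 11.1% of all 3329 such pairs on the array. The changes of the Celf2 and Celf1 representative probes differed by 0.69 (exact permutation p = 0.0317, adjusted over 3 comparisons of related members, 0.0476). This rested on the choice of probes. Against the third Celf1 probe the Celf2 representative differed by 0.03 (exact permutation p = 0.873), and with the second Celf2 probe no combination passed (exact permutation p = 0.103 to 0.905).

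**Figure D2:**
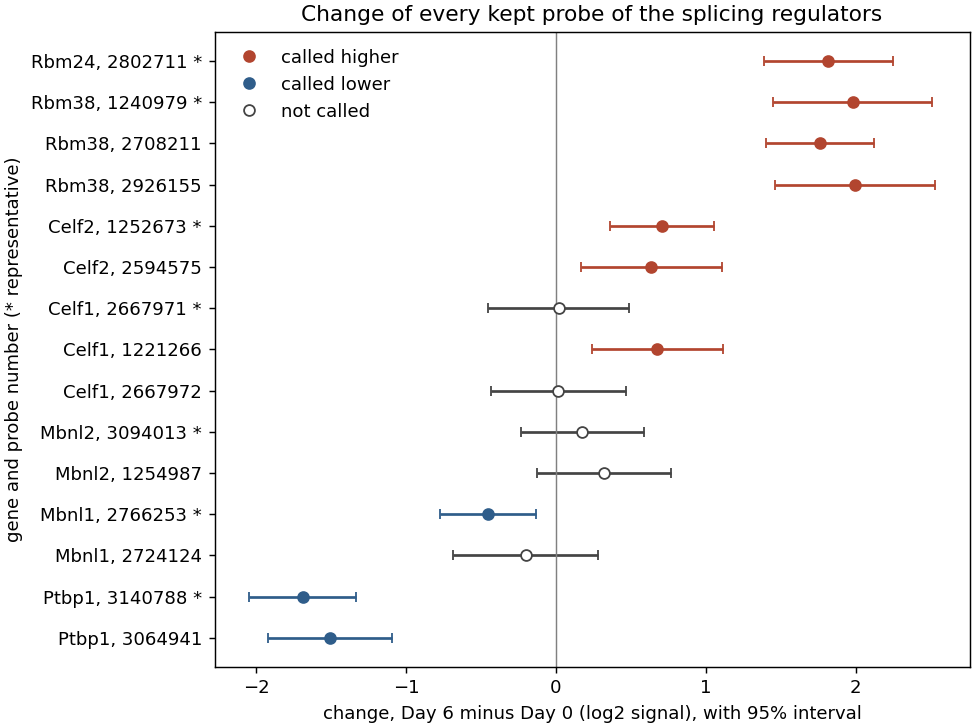
Change in log2 signal at Day 6 minus Day 0 (horizontal axis) of the 15 kept probes of the splicing regulators, with 95% intervals from limma; asterisks mark the representative probe of each gene. Of the probes 7 were called higher, 3 lower and 5 not called, and the Celf1 probe at 0.68 stands apart from the other 2 Celf1 probes at 0.02.

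Of the 2 MBNL genes tested, Mbnl1 fell by a small amount and Mbnl2 was not called. Mbnl1, the main muscleblind protein of adult skeletal muscle, had 11.08, 10.85, 11.38, 11.08 and 11.42 at Day 6, against 11.54, 11.81, 11.47, 11.57 and 11.67 at Day 0 (ILMN_2766253). The days did not overlap, but the highest Day 6 sample and the lowest Day 0 sample were close. The change was -0.45 ± 0.15 (SE, limma adjusted p = 0.0234, exact permutation p = 0.00794), or 1.37-fold lower. The call was lost in 7 of 24 alternatives, with an adjusted p of 0.0531, 0.0694 and 0.0506 without Day 6 replicate 1, 2 or 4 and 0.0623 without Day 0 replicate 2. It was also lost on the deposited Z-scores (0.0950) and with the replicate number as a block (0.0560). The second Mbnl1 probe was near background, detected in 1 Day 6 and 3 Day 0 samples, and changed by -0.20 (adjusted p = 0.501).

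Mbnl2, which overlaps MBNL1 in function, had 11.43, 11.11, 10.96, 10.85 and 11.02 at Day 6, against 11.18, 11.30, 10.57, 11.01 and 10.43 at Day 0 (ILMN_3094013). The days overlapped, with a change of 0.18 (95% interval -0.23 to 0.58, adjusted p = 0.486), and the second probe changed by 0.32 (adjusted p = 0.232). The changes of Mbnl1 and Mbnl2 differed by -0.63 (exact permutation p = 0.0238, adjusted over the 3 comparisons, 0.0476), and those of Mbnl1 and the second Mbnl2 probe by -0.77 (exact permutation p = 0.0397). With the second Mbnl1 probe, near background, the differences were -0.38 (exact permutation p = 0.206) and -0.52 (p = 0.0159). Mbnl3, known to oppose muscle differentiation in mouse myoblasts, was detected in 1 of 5 Day 6 samples and in no Day 0 sample, with signals of 50.3 to 65.8 at Day 6 and 54.0 to 59.2 at Day 0. Qk was detected in no Day 6 sample and on 1 of the 6 Day 0 arrays, with signals of 51.9 to 57.9 at Day 6 and 46.8 to 61.7 at Day 0. Each of these genes was read by a single probe here, and neither was tested.

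The sample labels also carry a part E1 to E4, whose meaning is not given in the sources used here and which both days share. Within each part the days differed in the same direction as overall for the 5 called genes. This had to be so, since the days of their representative probes did not overlap, and it is no further support. Only the sizes of the differences were free to vary, and each part holds few samples of a day. Ptbp1 differed by -1.77, -1.44, -1.62 and -2.03 within E1 to E4. Rbm24 differed by 1.85, 2.40, 1.63 and 1.45. Rbm38 differed by 2.21, 2.59, 2.01 and 0.96, the last in the part that holds Day 0 replicate 5. Celf2 differed by 0.66, 1.01, 0.60 and 0.42, and Mbnl1 by -0.59, -0.63, -0.34 and -0.25. For Celf1 the signs were mixed, with -0.55, 0.67, -0.23 and 0.44, and for Mbnl2 the values were 0.19, 0.54, -0.10 and 0.59. Without Day 0 replicate 5 the changes were 1.84 for Rbm24, -1.63 for Ptbp1, 0.77 for Celf2 and -0.44 for Mbnl1, each close to the value over all samples.

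**Figure D3:**
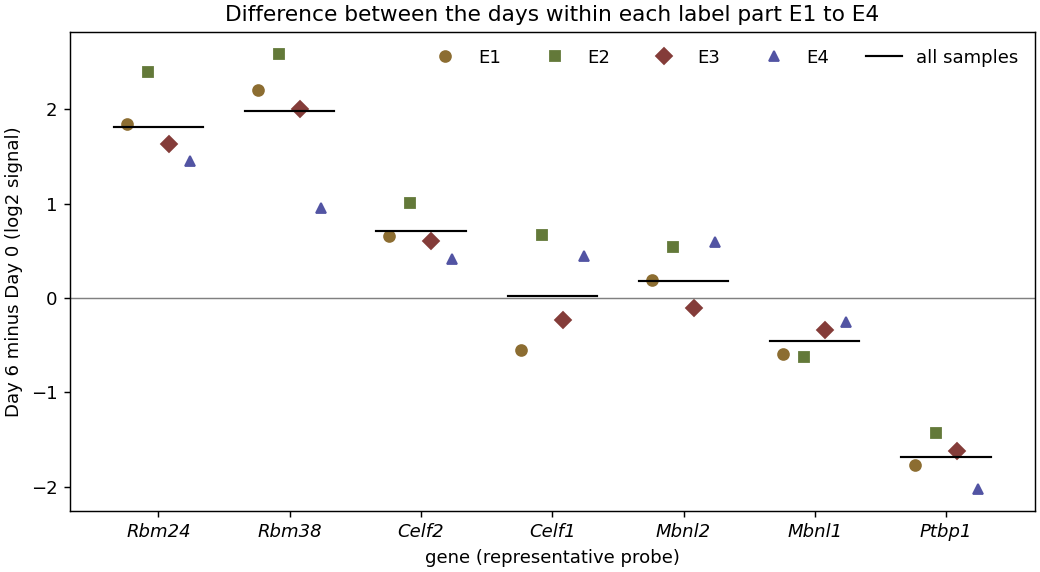
Difference between Day 6 and Day 0 in log2 signal (vertical axis) within each label part E1 to E4, for the representative probe of 7 splicing regulators; symbols are parts and the line is the change over all samples. Rbm24, Rbm38, Celf2, Mbnl1 and Ptbp1 keep their sign in all 4 parts, which follows from their days not overlapping. Rbm38 is at 0.96 in E4, and Celf1 and Mbnl2 lie on both sides of 0.

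For the 3 members with the largest changes, the genes with the most similar signal over the 10 samples were looked up among 3911 called genes. All of them differ between the days, so a high correlation is built in, and the values are a description. Rbm38 was followed most closely by Nrap, a protein of the myotendinous junction and of myofibril assembly (Pearson r = 0.991), Sema3f (0.990) and Slc2a6 (0.989). Rbm24 was followed by Camk2b, a calcium-dependent kinase (0.989), the microtubule-binding Map4 (0.988) and Tmem189 (0.986). Ptbp1 was followed by Fosl1, an AP-1 transcription factor (0.990), Mybl2, a regulator of cell cycle genes (0.989), and Igfbp2 (0.988). The 10 points share arrays and normalization, the genes were picked for their r over these same points, and the Day 0 values of Rbm24 are all undetected.

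The member values were set beside a list of 31 other splicing factors that are regulated between tissues, of which 27 had a probe and 16 were tested. Of these 2 were called higher (12.5%), 4 lower (25%) and 10 not called, with a median change of -0.11. Over all genes tested, 21.0% were called higher and 24.2% lower, so the share called lower was near that of all genes. The largest fitted change of the list was that of Rbfox1, which binds GCAUG next to muscle and neuronal exons. Its signals were 9.85, 9.58, 9.67, 9.15 and 9.30 at Day 6, against 4.41, 4.24, 4.45, 4.35 and 4.52 at Day 0, where no array detected it. On the normalized scale used here, Rbfox1 was at least 28.3-fold higher at Day 6 (limma adjusted p = 1.1e-10). Its fitted change ran from 3.45 to 5.21 over the alternatives, so the fold depends on the processing. A second Rbfox1 probe, annotated to another transcript, was at least 1.60-fold higher on the same scale. Msi2, a Musashi RNA-binding protein, was higher by 0.86 (adjusted p = 0.0015), a call lost with equal array medians (adjusted p = 0.0564). Without Day 0 replicate 5 the Msi2 change was 0.71.

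Called lower in this list were Celf4 by -0.80, Tial1 by -0.76, Khdrbs1 (SAM68) by -0.75 and Ptbp3, a further PTBP relative, by -0.54. Celf4 was undetected at Day 6 and at least 1.55-fold lower on the normalized scale used here. Its fitted change ran from -0.84 to -0.32 over the alternatives. The Tial1 call (adjusted p = 0.0114), with overlapping days, was lost with equal array medians (adjusted p = 0.0512). It was also lost by the Z-ratio that the methods use, the difference of mean Z-scores over its SD, which did not call Celf4 either. The second Tial1 probe was not called (-0.33, adjusted p = 0.0912). The Ptbp3 call (adjusted p = 0.0360) was lost in 10 of 24 alternatives, with an adjusted p of 0.0561, 0.0836, 0.0771, 0.0945, 0.0957 and 0.0582 without Day 6 replicate 1, 2 or 3 or Day 0 replicate 1, 2 or 4. The second Ptbp3 probe, near background, changed by 0.16 and was not called (adjusted p = 0.399). Its change differed from that of the representative probe by 0.70 (limma adjusted p over all probe pairs = 0.0498). The second Khdrbs1 probe changed by -0.62 and was not called (adjusted p = 0.0693), and the second Celf4 probe was not kept. Rbfox2, the relative of RBFOX1 expressed in many tissues, changed by 0.45 and was not called (adjusted p = 0.180). The partners of PTBP1 and the DEAD-box factors were not called either, with -0.40 for Raver1, 0.47 for Ddx5 and 0.26 for Ddx17.

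A second list held 30 muscle genes with known regulated splice events, the kind of transcript on which these factors act. Of these 25 had a probe and 20 were tested, with 15 called higher (75%), 2 lower (10%) and 3 not called, and a median change of 1.98. Over all genes tested the shares were 21.0% higher and 24.2% lower. By representative probe, the largest increases were those of Tpm2, encoding beta-tropomyosin, by 6.35, of the calcium pump gene Atp2a1 by 5.76 and of the calcium release channel gene Ryr1 by 5.41. Without Day 0 replicate 5 these were 7.06, 6.56 and 6.23. The size depended on the probe for Tpm2, whose other probes of the same transcript rose by 0.84 and 2.26, and for Ryr1, whose other probes rose by 4.98, 4.31 and 0.77. The 2 genes called lower were Tpm1 by -1.95 (limma adjusted p = 3.7e-07) and Actn1, a non-muscle alpha-actinin, by -0.57 (adjusted p = 0.0204). Each was read by a single probe, so the decrease is that of the probe and not of all transcripts of the gene. The Actn1 call was lost without Day 6 replicate 2 (0.0517) or without Day 0 replicate 1 (0.0579) or 2 (0.0570). Naca, Capzb and Pkm were not called.

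The array measures the signal of single probes and not exon inclusion, but probes of 1 gene can be compared within a sample. Among the genes of the second list, 11 of 24 probe pairs, in 8 of 12 genes, changed by different amounts, against 11.1% of pairs over the array. In the first list 2 of 8 pairs did so (in Rbfox1 and Ptbp3). Where both probes were detected in all 10 samples, 8 of 15 pairs of the second list, 0 of 3 of the first and 1 of 6 of the members (the Celf1 pair) differed by limma, against 101 of 2195 pairs on the array (4.60%). The second list also changed more than the array, with a median change of 1.98 against -0.03 over all genes. The pairs were not matched for the size of the change. Whether its share of differing pairs exceeds that of genes that change as much was not tested. The genes named next were chosen after their values were seen. The widest differences of the second list were those of Tpm2, with -5.51 and -4.09 for its other probes minus the representative one (adjusted p = 1.1e-06 and 1.3e-07), and of the dimmest Ryr1 probe, with -4.64 (adjusted p = 0.00026). That Ryr1 probe was undetected at Day 0, so its own rise is only a bound of at least 1.31-fold on the normalized scale used here. Capzb, which encodes the beta subunit of the actin capping protein, changed by -0.25 at its representative probe and by 3.13 at a probe annotated to another transcript, a difference of 3.38 ± 0.33 (SE, limma adjusted p = 5.1e-06). A further Capzb probe annotated to that same other transcript changed by -0.32.

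Pdlim5, which encodes a Z-disc protein, rose by 2.71 at its representative probe and fell by 1.0 at a probe annotated to a different transcript, a difference of -3.70 ± 0.28 (adjusted p = 3.5e-07). Another Pdlim5 probe, with the representative probe's transcript, rose by 2.16. Naca, whose muscle form skNAC arises by inclusion of a long exon, changed by -0.07 at the representative probe and by -1.14 and -1.04 at 2 others with the same annotation. The cause of these differences between probes was not tested.

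**Figure D4:**
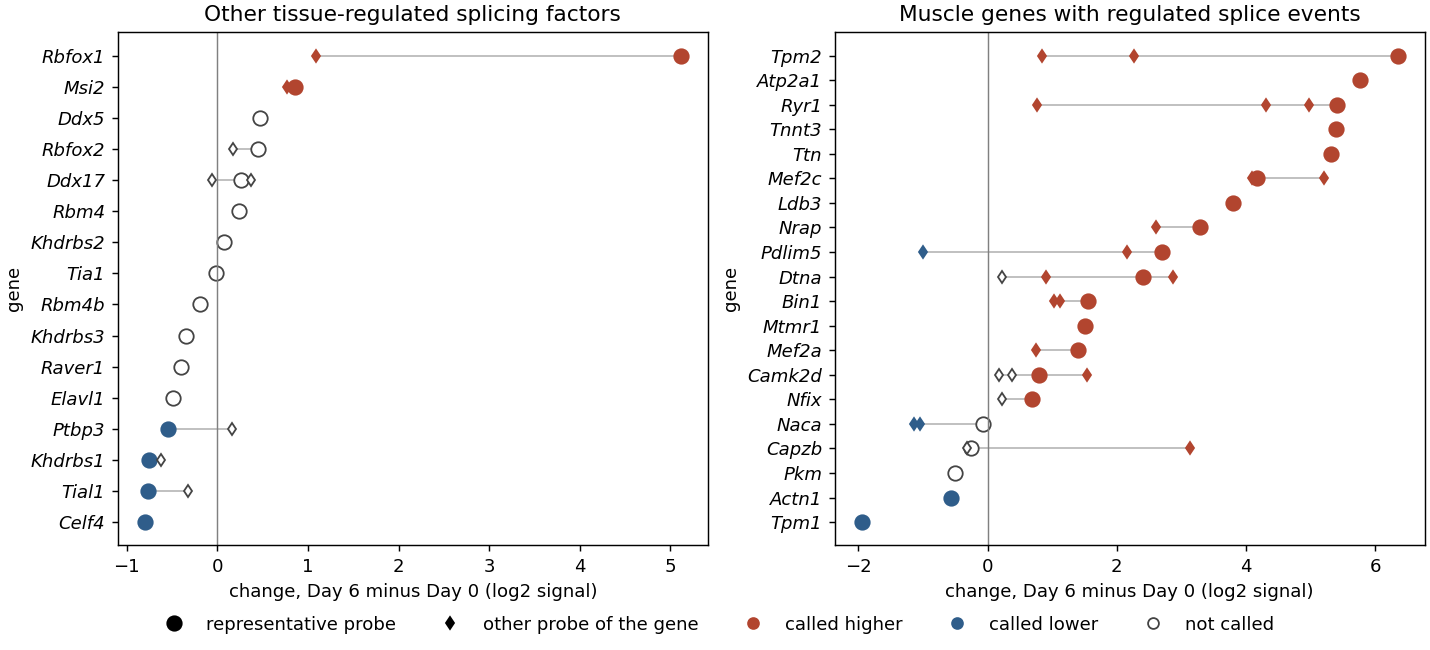
Change in log2 signal at Day 6 minus Day 0 (horizontal axis) of the tested genes of the 2 lists (rows, sorted by representative probe); large circles are representative probes, small diamonds other kept probes of the gene, and open symbols were not called. Rbfox1 stands at 5.12, far above the other splicing factors, and Tpm2, Ryr1, Pdlim5 and Capzb have probes that lie far apart.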

How the data were processed

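RNA of C2C12 cells was measured on Illumina MouseRef-8 v2.0 arrays (11 arrays, 10 samples). The authors obtained signals with GenomeStudio 2011.1, as the submitters' processing notes name it. The deposited signals are average intensities per probe, with neither background subtracted nor arrays normalized to each other. The deposited detection p-value compares a probe with the negative controls. The authors also deposited a score per probe, the Z-score of the log signal within its array, and recomputation from the signals matched it within 0.005 on 11 arrays.

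Background correction and quantile normalization used neqc (limma 3.58.1, R 4.3.3, offset 16, negative controls inferred from the detection p), and the 2 arrays of Day 0 replicate 5 were averaged. Quantile normalization sets the arrays to a common distribution, so a change is relative to all probes, whose median change was -0.04. Of 25697 probes, 23978 carried 1 gene symbol. Tests were lmFit and eBayes without covariates over all kept probes, and an exact permutation test of 252 splits, two-sided, whose smallest p is 0.00794. The limma fit was tested on simulated data. The number of samples limits the precision. Alternatives covered background correction, scaling, the Z-scores, the detection filter, either array of Day 0 replicate 5, blocks, a robust trend, a gene-level fit, each sample left out, and the Z-ratio (difference of mean Z-scores over its SD, called past 1).

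The genes named were all members, the 3 called genes of each list that increased most, the 3 that decreased most, those behind any count of at most 5, and the 3 genes most like each of the 3 members that changed most. Members and lists were chosen with earlier results of these data known. The comparison of probe pairs, the related members compared by other probes, and the other genes named, were added after values were seen. Promoter windows are from RefSeq (GRCm38.p6), and plots used Python 3.11.15 with matplotlib 3.10.9. The array's genome build is not given in the sources used here.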

Additional observations from a re-analysis of the deposited data

Results flagged for a closer look

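Of 52 groups of 5 values of 1 probe on 1 day, 7 held a value far from the other 4 by Dixon's criterion, which chance meets in about 1 of 20 groups. Day 0 replicate 5 was high among Day 0 samples for 2 Rbm38 probes, at 8.21 (next highest 7.00) and 7.52 (next highest 6.45), and low for Msi2, at 7.09 (next lowest 7.76). Its summed muscle markers were 12078, and the part of that in these values was not tested. Day 6 replicate 3 was high among Day 6 samples for Celf2, at 11.22 (next highest 10.85), and for the dim Mbnl1 probe, at 5.26 (next highest 4.51), and low for Ryr1, at 11.66 (next lowest 11.89). Day 6 replicate 4 was high for 1 of the Rbm38 probes, at 8.80 (next highest 8.46).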

How the results depend on the processing

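The calls of the representative probes of Rbm38 and Ptbp1 held in all 24 alternatives and that of Rbm24 in the 23 in which it was tested, with changes of 1.62 to 2.25, -1.86 to -1.59 and 0.92 to 1.97. With equal array medians, 1627 instead of 2620 probes were called higher and 35.7% of calls were higher instead of 46.3%, with a median change of -0.13 instead of -0.04, and the count of other splicing factors called higher was 1 instead of 2. The number of members called lower was 1 instead of 2 on the Z-scores, with the replicate block, by the Z-ratio and when every kept probe had to be called, and 1 to 2 when 1 sample was left out. Of the other splicing factors called lower, 1 instead of 4 was left by the Z-ratio and when every kept probe had to be called. Detection in all 10 samples left 2 of them lower and 1 higher, since fewer genes were tested. Of the muscle genes, 1 to 2 were called lower when 1 sample was left out.

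The number of probe pairs that differed was 679 without background correction, 647 with normexp and 101 where both probes were detected in all 10 samples, against 370. For the members it was 3 instead of 1 without background correction, with normexp and on the Z-scores. The uncalled Celf1 changes, ILMN_2667971 at 0.02 and ILMN_2667972 at 0.02, turned sign with equal medians (-0.16 for ILMN_2667971 and -0.16 for ILMN_2667972), on the Z-scores (-0.005 and -0.002), by the Z-ratio (-0.014 and -0.0056) and without both E4 samples (-0.088 and -0.061), and ILMN_2667972 also with the repeat array alone (-0.018). The difference of Celf2 and Celf1 turned sign, to -0.039 against 0.69, with the probes ILMN_2594575 and ILMN_1221266. Leaving out 1 sample gave -0.14 to 0.13 for ILMN_2667971 and -0.11 to 0.12 for ILMN_2667972.

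The same replicate numbers did not pair the days: r between deviations was -0.24 to 0.20, with 1 of 5 over 0.1, and 1 of 5 Day 0 samples was most like its own number. With the replicate block 2467 probes were called higher and 2866 lower, and the calls of Mbnl1 (adjusted p = 0.0560) and of the second Celf2 probe (0.0534) were lost. The cause of these changes was not tested. Signals near background limit what can be said of Mbnl3, Ptbp2 and Qk.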
